A study of Mus musculus with 2 samples.

Results

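The 6 genes described here control GTPases during cell division: Racgap1, Arhgap11a, Arhgap19, Depdc1a, Depdc1b and Gpsm2. They come from a deposited table of GTPase-activating proteins (GAPs, which switch small GTPases off) and guanine nucleotide exchange factors (GEFs, which switch them on). The 6 were chosen with their differences between differentiated and undifferentiated cells in that table known, and their probe sets were then taken by gene name. They are 6 of the 168 genes the table holds, with 9 of its 374 probe sets. A probe set is the group of short probes on an Affymetrix array that reads 1 transcript. Of the 9 probe sets, 8 were called present in both groups and 1, for Racgap1, was called absent in both.

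The cells were a conditionally immortalized mouse podocyte line from a wild-type mouse carrying the Immorto transgene. Podocytes are the epithelial cells that wrap the capillaries of the kidney glomerulus. The Immorto transgene encodes a heat-sensitive viral T antigen that is induced by interferon gamma and keeps cells dividing while it is active. Differentiated cells were held at 37 °C in 5% serum without interferon gamma for at least 10 days, and the labels describe them as growth arrested. Undifferentiated cells were grown at 33 °C on collagen I with interferon gamma. The medium given for growth at 33 °C held 10% serum and interferon gamma at 100 U/ml. Each group is listed with 1 array of 1 line, which leaves every difference without a replicate check. Temperature, interferon, serum and RNA kit (Ambion for differentiated, Qiagen for undifferentiated cells) cannot be told apart from differentiation. The files used here name no podocyte marker, so the labelled cell type was not checked against its markers.

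When a cell divides, the spindle is first set in position and the cell is then cut across its middle by a ring of actin and myosin. The ring is built where the GTPase RhoA is active. Racgap1 is a subunit of centralspindlin, the complex that bundles the central spindle and brings the RhoA activator Ect2 to it. Arhgap11a and Arhgap19 are GAPs of RhoA that act in mitosis in human cells. Depdc1a and Depdc1b each carry a DEP domain, and Depdc1b has been linked to detachment of human cells as they enter mitosis. Gpsm2, also called LGN, links G protein alpha i subunits at the cell cortex to the spindle-binding protein NuMA and so orients the spindle.

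Genes expressed late in the cell cycle often carry a cell cycle homology element and CCAAT boxes in their promoters, so the promoters are shown to let these letters be read. RefSeq promoters of the assembly GRCm38.p6, running 250 bases before to 50 after the annotated start, matched 5 of the 6 genes, all but Depdc1b. Capitals mark TTTGAA, the cell cycle homology element, and CCAAT, each on either strand (TTCAAA and ATTGG on the other).
Racgap1 (chr15:99651607-99651906, minus strand): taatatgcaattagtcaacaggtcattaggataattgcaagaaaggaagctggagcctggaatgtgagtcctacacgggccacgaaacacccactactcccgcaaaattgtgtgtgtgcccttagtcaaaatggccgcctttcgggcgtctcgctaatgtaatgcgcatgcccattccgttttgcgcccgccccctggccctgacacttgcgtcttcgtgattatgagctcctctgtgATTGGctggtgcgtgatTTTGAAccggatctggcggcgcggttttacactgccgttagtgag
Depdc1a (chr3:159495183-159495482, plus strand): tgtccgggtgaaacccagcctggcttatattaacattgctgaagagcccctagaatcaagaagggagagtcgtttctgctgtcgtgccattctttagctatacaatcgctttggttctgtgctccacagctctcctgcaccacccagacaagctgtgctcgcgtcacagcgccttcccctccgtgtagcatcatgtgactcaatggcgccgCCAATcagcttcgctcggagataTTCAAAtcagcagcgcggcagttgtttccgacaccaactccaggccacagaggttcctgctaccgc
Arhgap11a (chr2:113848612-113848911, minus strand): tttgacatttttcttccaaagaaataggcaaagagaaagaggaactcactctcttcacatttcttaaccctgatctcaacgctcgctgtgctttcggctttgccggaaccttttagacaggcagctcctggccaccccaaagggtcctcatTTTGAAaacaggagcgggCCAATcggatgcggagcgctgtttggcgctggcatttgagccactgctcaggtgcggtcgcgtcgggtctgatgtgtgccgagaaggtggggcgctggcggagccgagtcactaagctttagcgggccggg
Arhgap19 (chr19:41802035-41802334, minus strand): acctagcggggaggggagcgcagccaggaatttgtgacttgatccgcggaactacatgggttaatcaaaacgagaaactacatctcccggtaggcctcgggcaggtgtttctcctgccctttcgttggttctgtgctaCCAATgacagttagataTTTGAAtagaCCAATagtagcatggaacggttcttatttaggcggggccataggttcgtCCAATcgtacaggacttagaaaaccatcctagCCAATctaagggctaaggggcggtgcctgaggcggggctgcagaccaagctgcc
Gpsm2 (chr3:108722250-108722549, minus strand): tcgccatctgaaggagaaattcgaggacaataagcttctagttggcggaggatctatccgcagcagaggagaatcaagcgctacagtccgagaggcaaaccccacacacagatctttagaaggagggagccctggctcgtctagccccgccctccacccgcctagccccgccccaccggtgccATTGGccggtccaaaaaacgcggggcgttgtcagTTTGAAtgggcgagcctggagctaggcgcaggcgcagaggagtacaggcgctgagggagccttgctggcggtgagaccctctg

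All 5 promoters held both motifs, and no matches of these motifs overlapped. In Racgap1 the box began 12 bases before the start and the element at base 6 after it. In Depdc1a the box began at -39 and the element at -16. In Gpsm2 they began at -67 and -33. Arhgap11a had the opposite order, with the element at -99 and the box at -81. Arhgap19 had 1 element, at -95, and 4 boxes, from -112 to -4.

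Among all 32841 promoters of this length, 17.9% held the element, 37.4% held the box and 6.95% held both. Among the 204 promoters of genes in the GAP and GEF table, 4.90% held both. Those 204 belong to 133 genes and include the 5 shown. The median share of G and C bases was 52.7% over all promoters and 61.5% over the 204. Its part in the motif shares was not tested. One more motif, TTTNNCGC of the E2F type, was found on either strand in Racgap1 and Arhgap11a and in 5.17% of all promoters; it overlapped neither of the others. The motifs were chosen with these sequences in view, and a match shows letters, not a bound site.

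**Figure D1:**
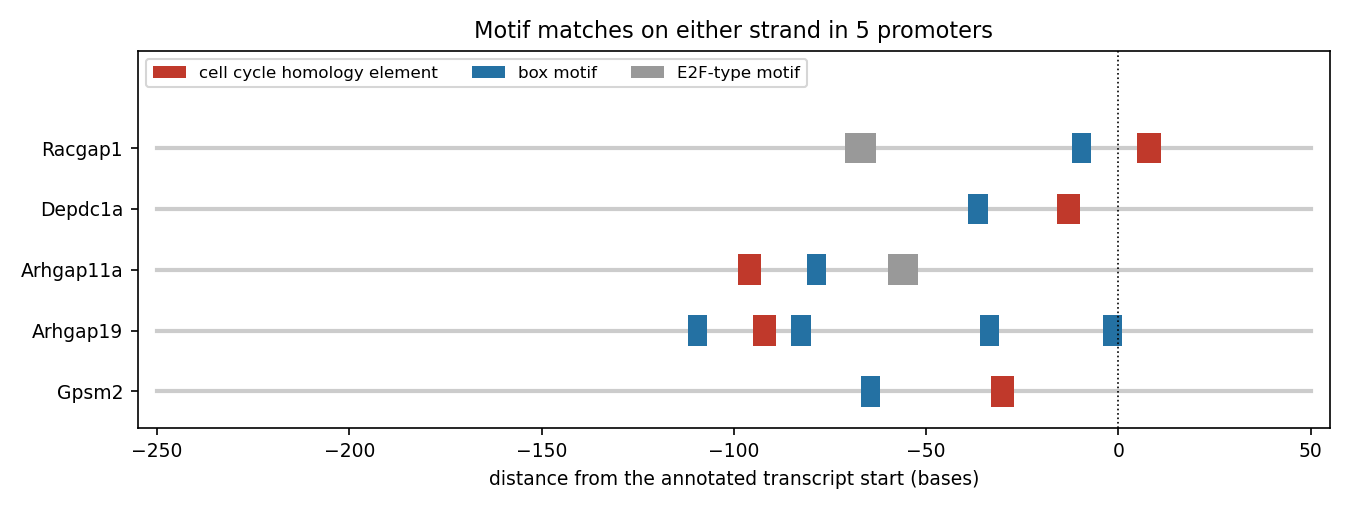
Positions of motif matches in the 5 promoters, in bases from the annotated transcript start (dotted line). Red marks the cell cycle homology element, blue the CCAAT box and grey the E2F-type motif; the element and the box occur in every promoter shown, and Arhgap19 has 4 boxes.

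Among the 133 genes of the GAP and GEF table with a RefSeq promoter, 5 others had both motifs, and 4 of them were measured. They are Gapvd1, which regulates the endosomal GTPase Rab5, Ranbp1, a partner of the nuclear transport GTPase Ran, Arap1, an Arf GAP, and Stard8. Of their 8 measured probe sets, 1 was at least 2-fold lower in differentiated cells and 0 were at least 2-fold higher, with a median log2 difference of -0.35. The lower one was a Gapvd1 probe set at 200 signal units in differentiated and 410 in undifferentiated cells. Over the 313 probe sets of that table present in at least 1 group, 7.67% were lower and 17.9% higher, with a median of 0.17. Most of the 8 read Gapvd1, so the median is largely that of 1 gene. Every Gapvd1 probe set and Ranbp1 (-0.28) lay below 0, while Arap1 (0.31) and Stard8 (0.12) lay above it. This split did not hold in the second table of signals described below. There Arap1 (-1.90) and Ranbp1 (-0.38) lay below 0, the Gapvd1 probe sets ran from -2.75 to 0.037, and Stard8 was not measured.

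There are 2 differentiated signals for every probe set. The GAP and GEF table gives a signal, a detection call and a standard error (SE) for each group. A second table, called the value table here, gives 1 signal per array for the whole array of 45037 probe sets. Their undifferentiated signals were equal within 0.005 for all 374 probe sets, but their differentiated signals were equal for 0 of 374. Both are therefore given, and since they share the undifferentiated array they are not independent. The origin of the differentiated signals in the GAP and GEF table is not given. Whether both differentiated columns read the same array therefore cannot be told. The differentiated array of the value table had a 3′ to 5′ signal ratio of 3.77 for Gapdh, against 0.868 on the undifferentiated array, and for beta-actin the ratios were 1.54 and 1.09. The part of that imbalance in the results was not tested. The SE is read as the model error over the probes of 1 array and holds no variation between cultures.

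In the GAP and GEF table all 8 present probe sets lay below 0, that is, lower in differentiated cells, against 39.3% of the 313 probe sets present in at least 1 group. At least 2-fold lower were 6 of the 8, belonging to Racgap1, Depdc1a, Depdc1b and Arhgap19, against 7.67% of the 313. None of the 8 was at least 2-fold higher, against 17.9% of the 313. The split of the 313 depended on the scaling: it was 24 lower and 56 higher as deposited, 33 and 42 with equal 75th percentiles, 31 and 43 with equal quantiles, and 72 and 25 with equal medians. Under each of the last 3 scalings 7 of the 8 were at least 2-fold lower. The median log2 difference was -2.14 over the 8 and 0.17 over the 313. The 5 lowest differences among the 313 were all from these genes. The genes were selected on these same differences between groups, so the counts describe them and support nothing. Less RNA per cell and fewer dividing cells cannot be told apart in bulk RNA.

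**Figure D2:**
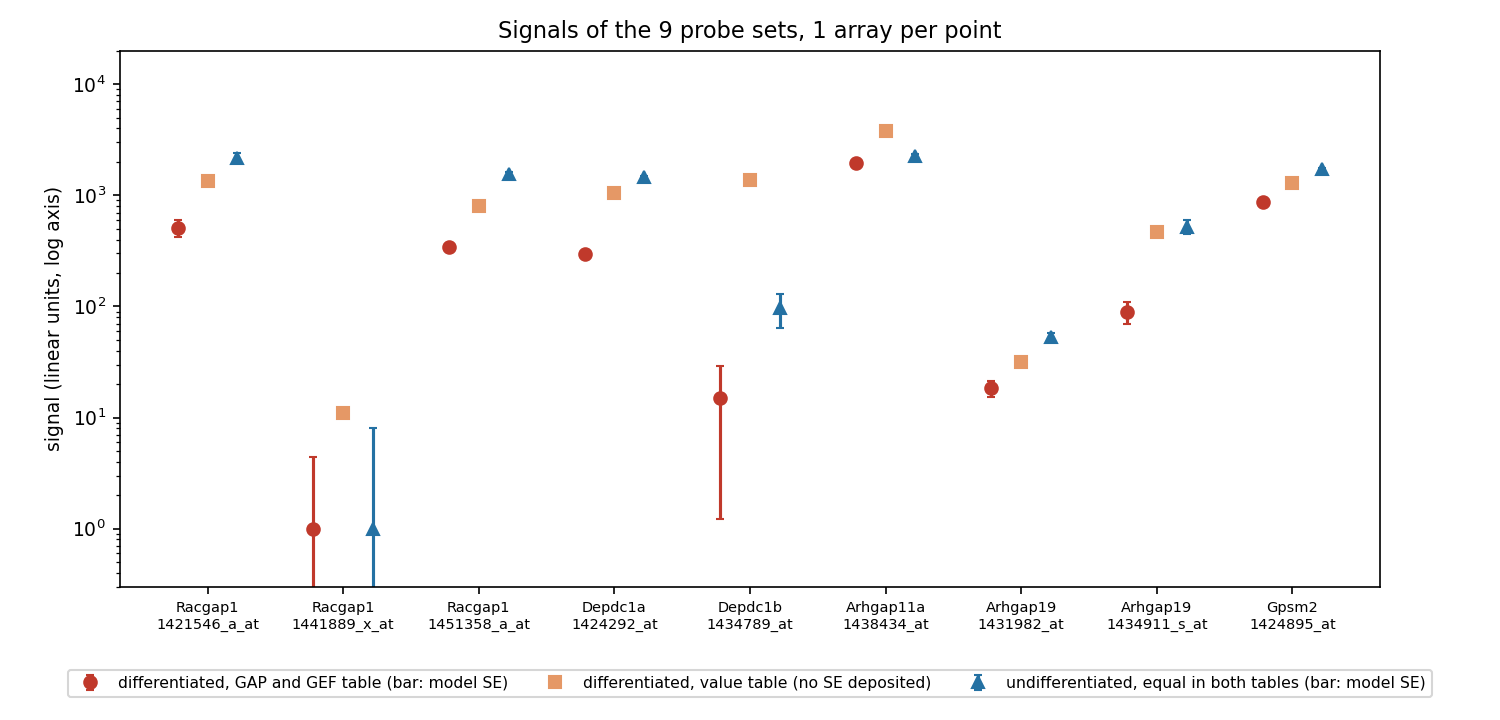
Signal of each of the 9 probe sets on a log axis: differentiated cells by the GAP and GEF table (red circles) and by the value table (orange squares), and undifferentiated cells (blue triangles). Bars are the deposited model SE, and those that reach 0 run off the axis. For every probe set the orange square lies above the red circle, and for Depdc1b, Arhgap11a and the absent-called Racgap1 1441889_x_at it also lies above the blue triangle.

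Racgap1, the centralspindlin subunit, was read by 3 probe sets. The first, 1421546_a_at, gave 509 ± 87.1 signal units (model SE) in differentiated cells and 2182 ± 203 in undifferentiated cells, a log2 difference of -2.10 ± 0.28. The second, 1451358_a_at, gave 343 ± 13.8 in differentiated and 1554 ± 62.4 in undifferentiated cells, a log2 difference of -2.18 ± 0.08. The log2 differences of these 2 probe sets lay 0.08 ± 0.29 apart, well within their model error, and each differentiated signal was between 22.1% and 23.3% of the undifferentiated one. The third, 1441889_x_at, was at 1 signal unit and called absent in both groups, so it says nothing of a change.

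The value table gave Racgap1 a smaller difference in the same direction. Its differentiated signals were 1348 for 1421546_a_at and 806 for 1451358_a_at, and these were 61.8% and 51.9% of the undifferentiated signals. After quantile normalization, which gives both arrays the same distribution of signals, the log2 differences were -0.43 and -0.71, both short of 2-fold. With equal medians they were -1.25 and -1.50.

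Arhgap19, a GAP of RhoA, was read by a stronger and a weaker probe set. The stronger, 1434911_s_at, gave 89.1 ± 20.2 in differentiated and 522 ± 76.2 in undifferentiated cells, a log2 difference of -2.55 ± 0.39. The suffix s_at marks probes that can match transcripts of more than 1 gene. The weaker, 1431982_at, gave 18.3 ± 3.06 in differentiated and 52.8 ± 5.03 in undifferentiated cells, a log2 difference of -1.53 ± 0.28. Both were lower in differentiated cells, but they differed from each other by 1.02 ± 0.48, slightly over 2 SE.

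The weaker Arhgap19 signals are near the level of undetected probe sets. The 95th percentile of absent-called signals was 68.3 in differentiated and 51.5 in undifferentiated cells, so the differentiated signal lay under it and the undifferentiated one just above. The value table gave the stronger probe set 466 in differentiated against 522 in undifferentiated cells, with a log2 difference of 0.0014 after quantile normalization. With signals as deposited it was -0.16, so its direction depends on the scaling. The weaker probe set had 31.4 in differentiated and 52.8 in undifferentiated cells, 1.68-fold lower as deposited. After normalization its differentiated signal lay under the floor of 37.6, and against that floor the log2 difference was -0.77.

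Arhgap11a, the other GAP of RhoA, stood apart from the rest. It gave 1942 ± 42.8 in differentiated and 2270 ± 96.7 in undifferentiated cells, 1.17-fold lower with a log2 difference of -0.23 ± 0.07. This was over 3 SE from 0 but far under 2-fold, and it ranked 88th from the lowest among the 313 probe sets. The direction was opposite in the value table, with 3818 in differentiated against 2270 in undifferentiated cells and a log2 difference of 1.04. That value passed 2-fold under quantile normalization alone: it was 0.75 as deposited, 0.83 with equal 75th percentiles and 0.20 with equal medians.

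Depdc1a, a DEP domain protein of mitotic cells, had a large difference with a small model SE in the GAP and GEF table. It gave 298 ± 18.5 in differentiated and 1475 ± 7.71 in undifferentiated cells, 4.95-fold lower with a log2 difference of -2.31 ± 0.09. Its differentiated signal in the value table was 1043, or 70.7% of the undifferentiated one, and the log2 difference was -0.25, or -1.05 with equal medians.

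Depdc1b, its close relative, had the lowest difference of the GAP and GEF table and the largest model SE of the 8 probe sets. It gave 15.1 ± 13.8 in differentiated and 96.2 ± 32.6 in undifferentiated cells, a log2 difference of -2.67 ± 1.41. The differentiated signal was 1.09 times its own SE and lay under the 95th percentile of absent-called signals, although the probe set was called present. Raising low signals to the 40th percentile of the table, 62.2 units, left a log2 difference of -0.63. The value table had Depdc1b at 1379 in differentiated and 96.2 in undifferentiated cells, 13.9-fold higher after quantile normalization, with a log2 difference of 3.79. It is the only one of the 8 probe sets whose differences passed 2-fold in opposite directions in the 2 tables.

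Gpsm2, the spindle orientation protein, gave 867 ± 56.1 in differentiated and 1712 ± 59.2 in undifferentiated cells. It was 1.97-fold lower, just short of 2-fold, with a log2 difference of -0.98 ± 0.11. It passed 2-fold once the groups were scaled to each other, with -1.24 for equal 75th percentiles, -1.19 for quantile normalization and -1.64 for equal medians. In the value table it gave 1295 in differentiated against 1712 in undifferentiated cells, with a log2 difference of -0.15.

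In order of log2 difference the lowest was Depdc1b, followed by the stronger Arhgap19 probe set, Depdc1a, both Racgap1 probe sets, the weaker Arhgap19 probe set, Gpsm2 and Arhgap11a. Of the 7 pairs of neighbours in this order, 6 lay within 2 SE of each other. The exception was Gpsm2 against Arhgap11a, which lay 0.76 ± 0.13 apart. Model error thus separates Arhgap11a from its neighbour but does not order the others step by step. The model SE of the 8 signals ran from 2.20% to 91.9% of the signal in differentiated cells (median 11.6%) and from 0.523% to 33.8% in undifferentiated cells (median 6.77%). Over all present probe sets of the table the median was 10.1% in each group.

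**Figure D3:**
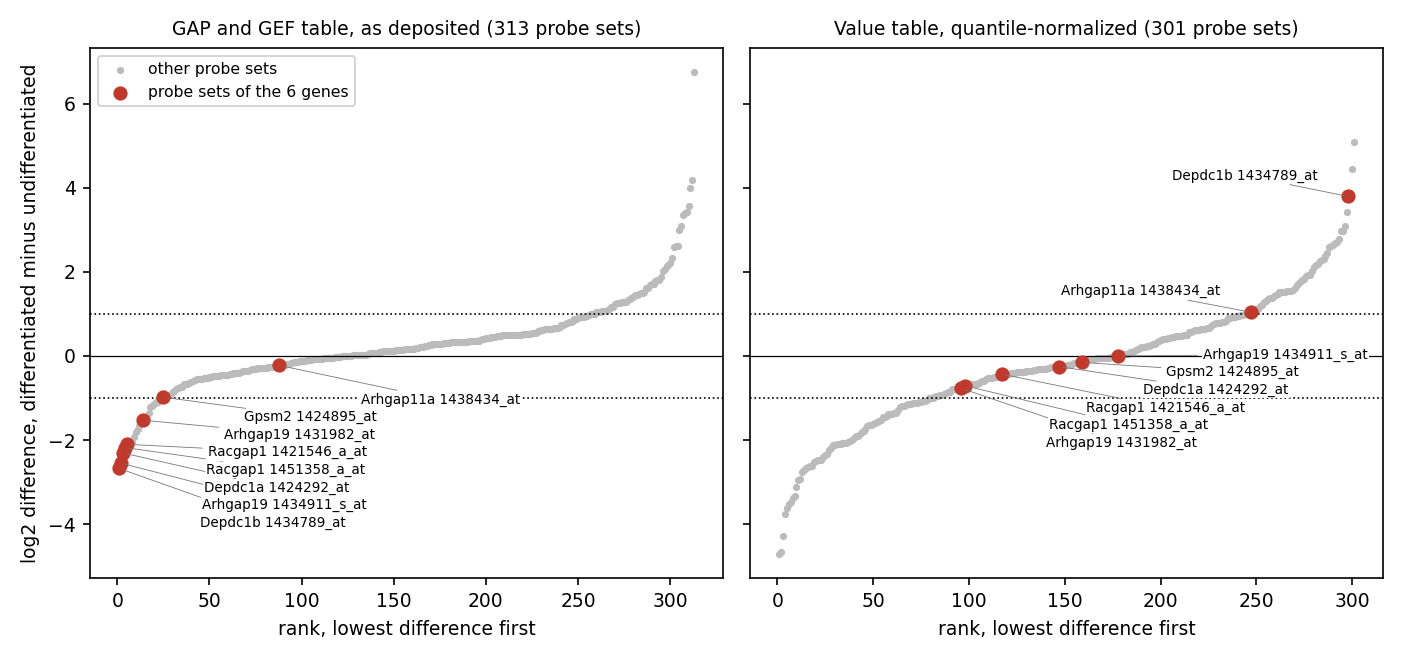
Log2 difference, differentiated minus undifferentiated, of every measured probe set of the GAP and GEF table, ranked from lowest to highest. The left panel uses the GAP and GEF table's signals (313 probe sets) and the right panel the value table's (301); dotted lines mark 2-fold. The 5 lowest points on the left belong to Depdc1b, Arhgap19, Depdc1a and Racgap1, and on the right Depdc1b is among the highest.

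By the value table, 0 of the 8 measured probe sets were at least 2-fold lower in differentiated cells, against 22% of all 31831 measured probe sets and 26.6% of the 301 measured ones of the GAP and GEF table. With equal medians the whole array had 10192 probe sets lower and 4957 higher, against 7018 and 6709 after quantile normalization, and 3 of the 8 were lower. Those at least 2-fold higher were 2 of 8, Depdc1b and Arhgap11a, against 21.1% of all and 19.3% of the 301. Below 0 lay 5 of 8, against 51% of all and 58.8% of the 301. The median log2 difference was -0.20 over the 8, -0.028 over all measured probe sets and -0.22 over the 301. In that table the median of the 8 thus lay next to that of the 301, and the share at least 2-fold higher was near the background.

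The place of a probe set among the 374 of the GAP and GEF table does not depend on how the columns were scaled. Racgap1 1421546_a_at lay at the 74.5th percentile in the GAP and GEF table's differentiated column, at the 92.1st in the value table's, and at the 93.4th in undifferentiated cells. Racgap1 1451358_a_at lay at the 67.5th, the 86.5th and the 90.8th percentile in the same order. Depdc1a lay at the 66.4th, the 89.2nd and the 89.7th percentile in the same order. For these 3 probe sets the place in the value table's differentiated column was nearer to that in undifferentiated cells than to that in the other differentiated column. The genes were grouped for low differentiated signals in the GAP and GEF table. That by itself favours a higher place in another differentiated column, so nothing is read from these places or from those below.

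Depdc1b lay at the 14.8th percentile in the GAP and GEF table's differentiated column, at the 92.4th in the value table's and at the 49.3rd in undifferentiated cells. Arhgap11a lay at the 90.5th, the 98.0th and the 94.3rd, and Gpsm2 at the 83.6th, the 91.8th and the 91.8th. The stronger Arhgap19 probe set lay at the 43.7th, the 77.4th and the 76.9th, and the weaker one at the 18.0th, the 26.6th and the 38.1st.

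All 9 probe sets had a higher differentiated signal in the value table than in the GAP and GEF table, against 42.8% of the 374 probe sets. Over the 8 present ones the ratio of the 2 differentiated signals ran from 1.49 for Gpsm2 to 91.6 for Depdc1b, with a median of 2.50. Over all 374 probe sets the median ratio was 0.857, and 90% of the ratios, from the 5th to the 95th percentile, lay between 0.102 and 8.71. Only 2 probe sets of the table had a higher ratio than Depdc1b. The genes were grouped for low differentiated signals in the GAP and GEF table, which by itself favours a higher ratio, so nothing is read from this count.

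**Figure D4:**
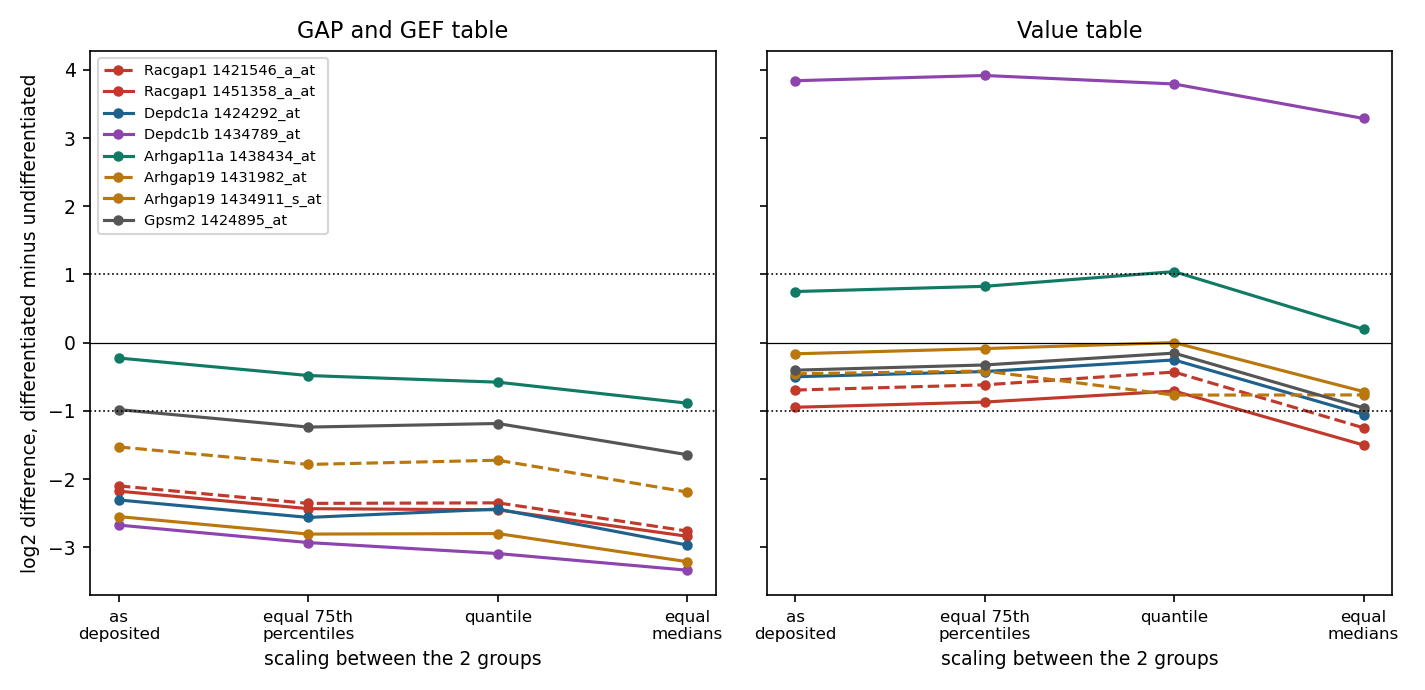
Log2 difference, differentiated minus undifferentiated, of the 8 present probe sets under 4 ways of scaling the groups to each other, for the GAP and GEF table (left) and the value table (right); dotted lines mark 2-fold, and dashed lines are Racgap1 1421546_a_at and Arhgap19 1431982_at. On the left every line stays below 0 under the 4 scalings. On the right Depdc1b and Arhgap11a stay above 0, and Arhgap19 1434911_s_at changes sign.

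Of 25 other regulators of cytokinesis, the spindle and mitotic GTPases that were listed, 15 had a measured probe set in the GAP and GEF table. With 1 probe set per gene, 3 of the 15 were at least 2-fold lower in differentiated cells and 0 were higher, against 6.62% lower and 18.5% higher among 151 measured genes. Among the 6 division genes described above, 4 were lower on the same basis. The 3 lower genes were Rangap1, Iqgap3 and Usp6nl. Rangap1, the GAP of Ran, was at 250 in differentiated and 713 in undifferentiated cells. Iqgap3, a scaffold protein of the IQGAP family, was at 551 in differentiated and 1556 in undifferentiated cells. Usp6nl, a GAP of Rab5, was at 472 in differentiated and 1093 in undifferentiated cells.

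The other 12 lay within 2-fold, and the median of the 15 was 0.17, the same as over all 151 genes. The close relatives of Gpsm2 were among them: Gpsm1, which also binds G protein alpha i, had a log2 difference of 0.33 ± 0.14, and Gpsm3 one of 0.17 ± 0.35. Rgs14, which also binds G protein alpha i, had 0.17 ± 0.07, and Ric8a, an exchange factor of G protein alpha subunits, had 0.28 ± 0.11. Iqgap1 had 0.45 ± 0.08. Going by the value table, with 1 probe set per gene, 4 of the 15 were at least 2-fold lower and 0 were higher. Among 137 measured genes, 27% were lower and 14.6% higher. The 4 were Arhgap21 (log2 difference -3.61), Arhgap35 (-1.81), Gpsm3 (-1.09) and Usp6nl (-1.07). The Arhgap21 value was that of 1 probe set, at 217 in differentiated cells. The other Arhgap21 probe sets had log2 differences of 0.032 and -0.0051 in the value table, so the gene's probe sets disagreed.

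The 5 genes of the GAP and GEF table whose log2 difference came nearest to the median of the 6 genes, -2.20, were Sipa1, Rangap1, Iqgap3, Tbc1d1 and Usp6nl. Likeness was the distance between log2 differences over the 2 conditions, with 1 array each. It was 0.40 for Sipa1, 0.69 for Rangap1, 0.70 for Iqgap3, 0.85 for Tbc1d1 and 0.99 for Usp6nl. In the value table Sipa1 (log2 difference -2.51) and Usp6nl (-1.07) were lower in differentiated cells. The chosen probe sets of Rangap1 (0.64), Iqgap3 (0.60) and Tbc1d1 (0.91) lay above 0 there. Other probe sets of these genes, present in at least 1 group of the GAP and GEF table, did not all do so. In the value table they had 0.50 and -1.11 for Rangap1, 0.63 and -1.46 for Tbc1d1, and 0.16 for Iqgap3. The probe sets of Rangap1 and of Tbc1d1 thus disagreed.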

How the data were processed

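The series lists 1 differentiated and 1 undifferentiated sample, with RNA hybridised to Affymetrix murine genome arrays. The authors deposited intensity values as linear signals per probe set, in a table of GAPs and GEFs with calls and SEs and in a value table of the whole array. Per the labels, the differentiated array was analysed with dChip, of which the version and the normalization are not given in the sources used. Detection calls were used as deposited. Signals of the GAP and GEF table were used unscaled, and measured means present in at least 1 group. SEs of log2 differences combine the deposited SEs of both signals. Value table signals were raised to at least 1, quantile-normalized on the log2 scale and raised to the 40th percentile (37.6 units); measured means above it on at least 1 array. Ties shared their mean. Called means at least 2-fold. There was no test and no p-value, and the number of arrays limits the precision. Only the quantile normalization and floor of the value table were run on simulated data, with changes planted in strong signals. Low signals, the SEs and the motif search were not tested in this way. Gene IDs were matched to RefSeq (GRCm38.p6) for names; all 6 matched. All probe sets of the 6 genes are named. Other genes come from a list of division regulators, from the 5 most like differences (1 probe set per gene, the one with the highest mean log2 signal), and from promoters with both motifs, the last chosen after values were seen. Members and lists were chosen with earlier results of these data known. The lists of division genes outside the table and of cell markers were not used, because the files name no such probe sets. Python 3.11.15, numpy 2.4.6, pandas 2.3.3 and matplotlib 3.10.9 were used.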

Additional observations from a re-analysis of the deposited data

How the results depend on the processing

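No paired analysis was possible because each group is listed with 1 array. In the GAP and GEF table, 4 to 7 of the present probe sets of the 6 genes were at least the threshold lower, and 0 higher, under every alternative listed: equal medians, equal 75th percentiles, quantile normalization, a floor at the 40th percentile, a pseudocount of 32, other rules on calls, and thresholds of 1.5-fold and 4-fold. Among all measured probe sets the count lower ran from 8 of 313 at 4-fold to 72 of 313 with equal medians. The count higher ran from 18 of 313 at 4-fold to 85 of 313 at 1.5-fold. The 6 genes were selected on these same differences, so the range of their counts supports nothing. The floor left the weaker Arhgap19 probe set unmeasured, and the pseudocount gave it -0.75. The median over all measured probe sets, 0.17, turned to -0.49 with equal medians and -0.089 with equal 75th percentiles. In the value table, the count lower, 0, became 3 with equal medians (both Racgap1 probe sets and Depdc1a), 1 with a floor at the 20th percentile (the weaker Arhgap19 probe set) and 2 at 1.5-fold. The count higher, 2, became 1 at 4-fold, as deposited, and with medians or 75th percentiles made equal, and Depdc1b was the one left. Arhgap19 1434911_s_at turned from 0.0014 to -0.16 as deposited, -0.72 with equal medians and -0.087 with equal 75th percentiles. The median over all measured probe sets, -0.028, turned to 0.094 as deposited and 0.15 with equal 75th percentiles. Equal medians moved every log2 difference of the GAP and GEF table by -0.66 and equal 75th percentiles by -0.26, so these shifts follow from the scaling itself. Low signals limit Depdc1b and the weaker Arhgap19 probe set most.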
